A study of Mus musculus with 3 samples.

Results

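The insulin-like growth factor (IGF) system of mouse islets is described here by cell class for 8 of the 31053 genes in the deposited matrices. They are 1 ligand (Igf1), 2 receptors (Igf1r and Insr), 4 binding proteins (Igfbp3, Igfbp4, Igfbp5 and Igfbp7) and 1 protease (Pappa2), and all 8 were found by symbol. They were picked by symbol, with earlier results of these data known. None was used to cluster or name cells, and all 8 passed the filter on low counts. The islets came from 3 female NOD-SCID mice aged 10 to 11 weeks, labelled as not diabetic, with 1 library per mouse. The scid mutation leaves the NOD background without mature T and B cells. Islets were purified after collagenase perfusion, dissociated, and profiled by droplet-based 3′ single-cell RNA sequencing. The labels name no treatment and form a single group, so the comparisons lie between cell classes within the same mice.

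IGF-1 is a secreted growth factor that signals through the IGF-1 receptor, a tyrosine kinase closely related to the insulin receptor, and both receptors feed the same IRS, PI3K and AKT pathway. In tissue fluid most IGF is held by binding proteins, which prolong its half-life and limit its access to the receptor. The pappalysin proteases free IGF again: PAPP-A2, the product of Pappa2, is known for cleaving IGFBP-3 and IGFBP-5. In islets, the capillary endothelium, its mural cells and sparse fibroblasts lie within a few cell widths of the hormone-producing cells, so source and target of such secreted factors can be different cells.

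On the mouse genome build GRCm38, Igfbp3 lies on chromosome 11 from 7206086 to 7213923 on the minus strand and Igfbp4 on the same chromosome from 99041244 to 99054392 on the plus strand. Igfbp5 spans 72857932 to 72874884 on the minus strand of chromosome 1. Igfbp7 spans 77349240 to 77408041 on the minus strand of chromosome 5, and Pappa2 spans 158711727 to 158980490 on the minus strand of chromosome 1. Igf1 spans 87858265 to 87937042 on chromosome 10 and Igf1r spans 67952827 to 68233668 on chromosome 7, both on the plus strand. Insr spans 3122061 to 3279617 on the minus strand of chromosome 8. A long noncoding gene, 1600012P17Rik, overlaps Pappa2 on the same strand, so reads of the shared stretch could be split between them. Because each of the 4 binding protein genes was highest in a non-endocrine class, the 120 bases upstream of their starts are shown, from RefSeq sequence of GRCm38.p6, each 5′ to 3′ on the gene's own strand and outside annotated exons. Capitals mark a TATA box (TATAAA) or a GC box (GGGCGG), searched on both strands, so a GC box of the opposite strand reads CCGCCC; no 2 of the motifs searched overlapped.
Igfbp3: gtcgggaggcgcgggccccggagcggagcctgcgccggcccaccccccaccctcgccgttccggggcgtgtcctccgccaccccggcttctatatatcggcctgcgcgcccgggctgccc
Igfbp4: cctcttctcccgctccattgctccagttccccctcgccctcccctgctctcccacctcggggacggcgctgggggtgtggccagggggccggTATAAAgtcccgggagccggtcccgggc
Igfbp5: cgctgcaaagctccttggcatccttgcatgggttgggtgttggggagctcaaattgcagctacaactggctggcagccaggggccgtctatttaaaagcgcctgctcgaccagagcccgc
Igfbp7: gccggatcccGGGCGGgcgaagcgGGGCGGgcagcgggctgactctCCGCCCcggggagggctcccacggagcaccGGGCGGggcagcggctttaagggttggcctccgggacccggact
The Igfbp3 window is chr11:7213924-7214043, the Igfbp4 window chr11:99041124-99041243, the Igfbp5 window chr1:72874885-72875004 and the Igfbp7 window chr5:77408046-77408165. Over the 250 bases before the start, Igfbp4 held 1 TATA box, 28 bases upstream, against 12.4% of 32851 mouse promoter windows of that length with one. Igfbp7 held 4 GC boxes, a motif present in 32.7% of all windows. Neither motif was found in the windows of Igfbp3 and Igfbp5, nor was a CCAAT box (CCAAT, 33.8% of windows) or a FOX core (TGTTTAC, 3.17% of windows) found in any of these 4. The 4 windows had no motif in common, and their GC content was 73.2% (Igfbp3), 69.2% (Igfbp4), 58.8% (Igfbp5) and 74.0% (Igfbp7), against a median of 52.4% over all windows. A match of letters is a description and says nothing of a factor binding there.

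Depth was 32389170, 48076507 and 57849496 unique molecular identifiers (UMIs, each a counted transcript) for mice 1, 2 and 3, with 1090, 2609 and 3474 cells kept. Clusters led by fixed marker genes gave 12 named classes, of which the ones described most are beta-like (171, 544 and 408 cells in mice 1, 2 and 3), alpha-like (167, 283 and 960), delta-like (101, 183 and 631), endothelial-like (49, 84 and 242), pericyte-like (16, 28 and 115) and macrophage-like (21, 50 and 113). The pericyte-like cluster was led by Acta2, Tagln and Rgs5 and also by Myh11, so it can hold smooth muscle. The fibroblast-like cluster, led by Dcn, Gsn and Col3a1, had 6, 16 and 43 cells, and mouse 1, below the minimum of 10 cells, was left out of its values, which leaves n = 2. Beta cell markers made up 347603 CPM in the fibroblast-like sum of mouse 2 and 7789 in that of mouse 3, and between 15495 and 54159 in the endothelial-like, pericyte-like and macrophage-like sums. Clusters without a name held 381, 1087 and 422 cells. Mice 1 and 2 shared 148 cell barcodes, 14 of them kept in both, against 9 and 13 shared barcodes in the other pairs. Levels below are UMIs summed per class and mouse, in counts for each 1000000 UMIs (CPM), scaled by the trimmed mean of M-values (TMM), and are given for mice 1, 2 and 3 in that order. A lower level in a class can come from fewer expressing cells or from less RNA per cell, which sums do not tell apart. The p-values are from edgeR's quasi-likelihood test over 12515 genes with Benjamini-Hochberg adjustment at a false discovery rate of 0.05, with the mouse as a block. They cover the spread over the 3 mice and not the error of drawing the classes from the same cells.

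**Figure D1:**
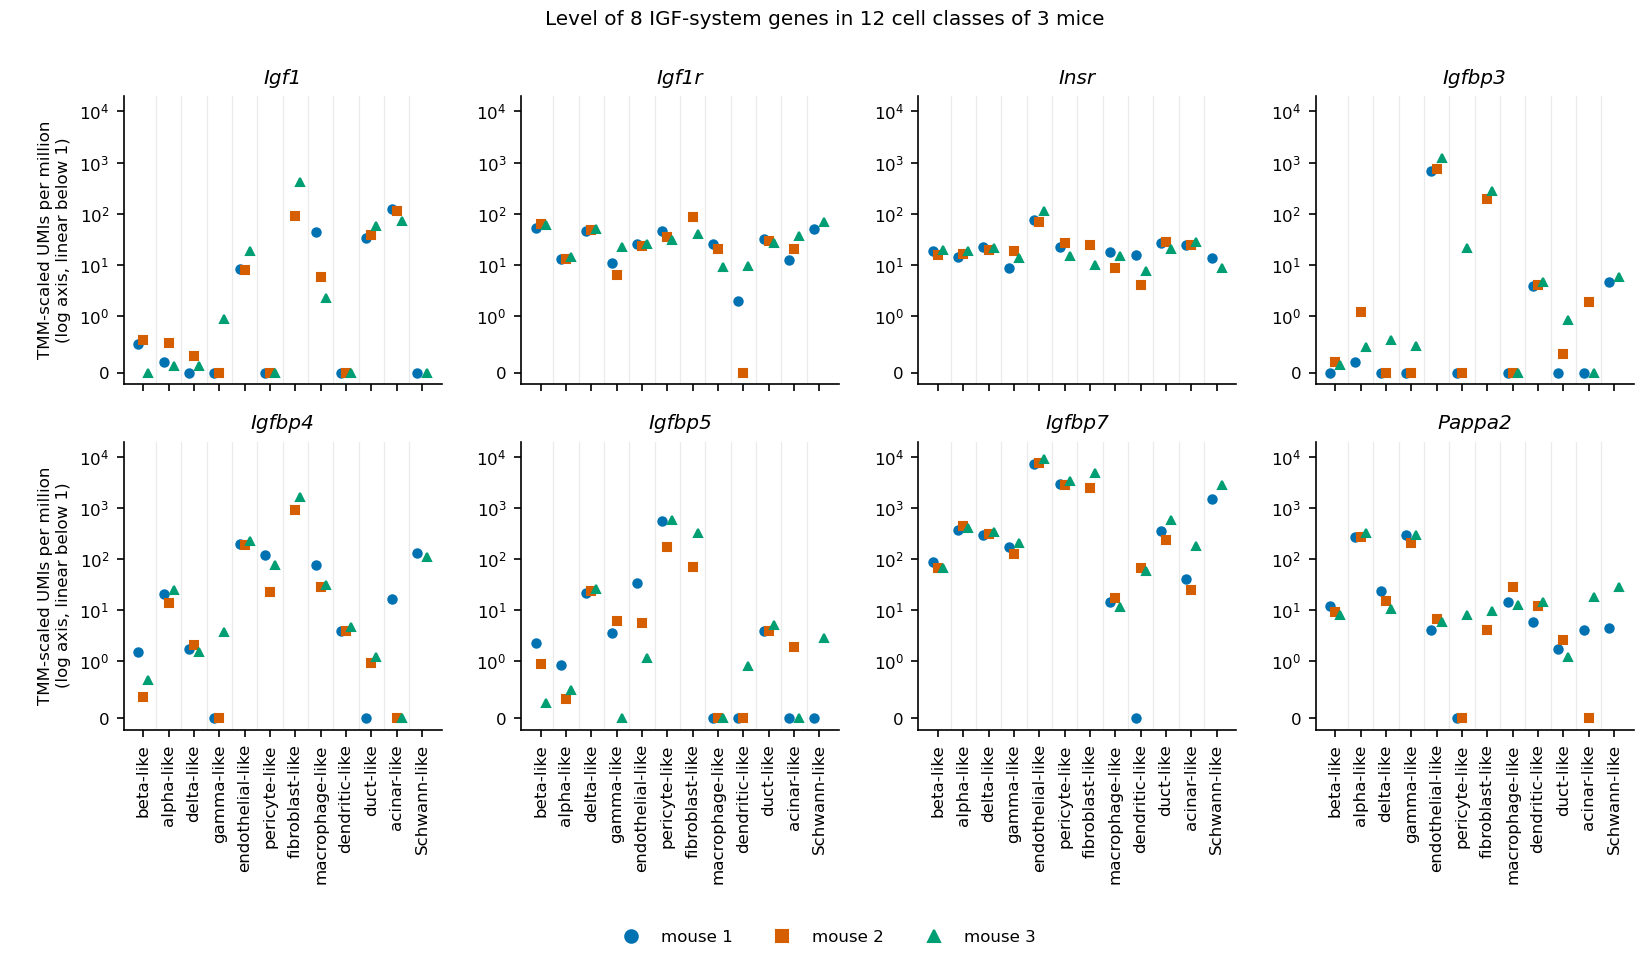
Level of each of the 8 genes in 12 cell classes. Each point is 1 class in 1 mouse, in TMM-scaled CPM on an axis that is logarithmic above 1 and linear below it. Pappa2 is high in alpha-like and gamma-like cells, Igfbp3 in endothelial-like and fibroblast-like cells, Igfbp5 in pericyte-like and fibroblast-like cells, and Insr in endothelial-like cells.

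The endothelial-like cells were the class with the highest levels of Igfbp7 and Igfbp3. Igfbp7, a secreted protein with low affinity for IGF that is deposited around vessels, stood at 7196, 7569.7 and 9131 CPM. The next classes were fibroblast-like cells at 2491 and 4906 (mice 2 and 3), pericyte-like cells at 2918, 2876 and 3361, and Schwann-like cells at 1510.1 and 2784 (mice 1 and 3). The endothelial-like range did not overlap that of any other class, while the fibroblast-like and pericyte-like ranges overlapped each other. Igfbp3, the main carrier of IGF in blood, was at 678, 745 and 1208 in endothelial-like cells and at 191 and 275 in fibroblast-like cells. In beta-like, alpha-like and delta-like cells it was close to nil, with 3, 16 and 5 UMIs over all mice, and in 184 macrophage-like cells none was counted. Igfbp4, a carrier that mainly inhibits IGF action, reached 202, 191 and 229.9 in endothelial-like cells, which placed them between the fibroblast-like cells and the Schwann-like cells (132 and 112).

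Against the mean of the beta-like, alpha-like and delta-like cells, 6 of the 8 genes were higher and 1 was lower in endothelial-like cells, where 25.9% of all genes tested were called higher and 24.6% lower. The median log2 difference of the 8 genes was 3.73, against -0.09 over all genes. Igfbp3 differed by 11.46 ± 0.31 (log2 ± SE, adjusted p = 5.35e-24 by edgeR), a difference whose size rests on the few endocrine UMIs given above, and it was higher in 3 of 3 mice. Igfbp4 was 70.6-fold higher (log2 difference 6.14 ± 0.29, adjusted p = 5.57e-18) and Igfbp7 36.8-fold higher (5.20 ± 0.35, adjusted p = 8.27e-14), each in 3 of 3 mice. Igf1 was also higher (5.56 ± 0.77, adjusted p = 3.91e-06), from 45 UMIs in endothelial-like cells against 8, 6 and 2 in beta-like, alpha-like and delta-like cells. Pappa2 was lower by 2.63 ± 0.42 (adjusted p = 2.79e-06), at 4.09, 6.75 and 5.91 from 3, 6 and 10 UMIs. The endocrine mean includes the alpha-like level of 278, 276 and 325, while beta-like cells were at 12.1, 9.09 and 7.95. Igfbp5 passed as higher (2.01 ± 0.73, adjusted p = 0.0256), but 25 of its 32 endothelial-like UMIs came from 1 cell of mouse 1. Without mouse 1 the difference was 0.36 (adjusted p = 0.879), and with every cell thinned to 2000 UMIs it was -1.57 (adjusted p = 0.360).

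Among sums of at least 10 cells, pericyte-like cells carried the most Igfbp5, a binding protein held in the extracellular matrix. Its level was 559, 174 and 582 in pericyte-like cells, 69.0 and 327 in fibroblast-like cells, and 0 in macrophage-like cells. The pericyte-like and fibroblast-like ranges overlapped, and mouse 2 was the lowest of the pericyte-like sums. The 6 fibroblast-like cells of mouse 1, left out, were at 3307 unscaled CPM against 871 in the pericyte-like cells of that mouse, with 198 of their 316 UMIs in 1 cell. The difference from the endocrine mean was 7.37 ± 0.44 on the log2 scale (adjusted p = 7.49e-12, higher in 3 of 3 mice). In all, 4 of the 8 genes were higher and 1 was lower in pericyte-like than in endocrine cells, where 17.4% of all genes were called higher and 16.5% lower, with medians of 1.95 for the 8 genes and -0.2 for all genes. Igfbp4 (4.53 ± 0.37) and Igfbp7 (3.82 ± 0.34) were among the 4, each higher in 3 of 3 mice. Igfbp3 was called as well (4.98 ± 0.64, adjusted p = 1.60e-07), yet all 16 of its pericyte-like UMIs were from mouse 3, and without that mouse the difference was -1.70 and did not pass. Pappa2 was lower (-2.92 ± 0.58, adjusted p = 1.48e-04), a call that was lost with at most 10% mitochondrial UMIs per cell (-1.38, adjusted p = 0.0960) and when cells were grouped on 2000 variable genes instead of markers (-0.48, adjusted p = 0.630). The pericyte-like level of Pappa2 was 0, 0 and 8.00, against 12.1, 9.09 and 7.95 in beta-like cells.

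Endothelial-like and pericyte-like cells differed in their binding proteins. Set against each other, 4 of the 8 genes were higher in endothelial-like cells and 1 in pericyte-like cells, where 11.3% and 9.02% of all genes were called. Igfbp3 was 89.0-fold higher in endothelial-like cells (6.48 ± 0.44, adjusted p = 1.33e-12), a size set by the 16 pericyte-like UMIs of mouse 3 (fitted at 13.47 without that mouse, when no pericyte-like UMI is left), and Igfbp5 was 41.0-fold higher in pericyte-like cells (-5.36 ± 0.66, adjusted p = 1.83e-06), each in 3 of 3 mice. Insr was 4.55-fold (adjusted p = 3.96e-06), Igfbp4 3.05-fold (adjusted p = 0.00201) and Igfbp7 2.60-fold (adjusted p = 0.0332) higher in endothelial-like cells. The Igfbp7 call was lost under 7 of 16 alternatives, with log2 differences of 1.21 to 1.40, among them the fit without the mouse block (adjusted p = 0.0943), DESeq2 (adjusted p = 0.0826), and the fits without mouse 2 (adjusted p = 0.260) or mouse 3 (adjusted p = 0.265). The Igfbp4 call was lost without mouse 2 (1.17, adjusted p = 0.178) or mouse 3 (1.56, adjusted p = 0.0727), and the Igfbp5 call with only the 2 classes in the fit (-5.67, adjusted p = 0.0652).

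Fibroblast-like cells were highest for Igfbp4 and had the highest mean of Igf1. Igfbp4 was at 913 and 1625 (mice 2 and 3), above every sum of any other class. Igf1 was at 89.3 and 409, a range that overlapped that of acinar-like cells (123, 111 and 73.0). The 6 fibroblast-like cells of mouse 1, which entered no value above, held 208 UMIs of Igfbp4, 316 of Igfbp5, 946 of Igfbp7, 23 of Igf1 and 20 of Igfbp3. Compared with the endocrine mean, 5 of the 8 genes were higher and 1 was lower, where 14.9% of all genes were called higher and 10.7% lower, with medians of 5.23 for the 8 genes and -0.17 for all genes. The differences were 9.87 ± 0.55 for Igf1, 9.30 ± 0.36 for Igfbp3, 8.84 ± 0.32 for Igfbp4, 6.51 ± 0.54 for Igfbp5 and 3.94 ± 0.38 for Igfbp7, and the largest adjusted p of these was 2.42e-09. Without the insulin-rich sum of mouse 2 the same 5 genes were called higher, but the class then has 1 sample, which is assumed to vary like the other classes. The lower call of Pappa2 (-2.14 ± 0.61, adjusted p = 0.00852) was lost under 8 of 17 alternatives, with differences from -3.05 to -0.69 in those 8. Pappa2 was at 4.06 and 9.77 in fibroblast-like cells, a range that overlapped that of beta-like cells (7.95 to 12.1). All 6 Pappa2 UMIs of the fibroblast-like cells of mouse 3 were in 1 cell.

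Pericyte-like and fibroblast-like cells, both mesenchymal, differed most in Igf1. No Igf1 UMI was counted in 16, 28 and 115 pericyte-like cells, which allows a level of up to 2.42 CPM over the 3 sums, from 3 counts. The mean fibroblast-like level was therefore at least 103-fold higher, and the lower of the 2 fibroblast-like sums at least 36.9-fold higher (adjusted p = 2.29e-05). Igfbp3 was 19.9-fold higher (4.31 ± 0.48, adjusted p = 1.02e-07), again set by those 16 UMIs (11.40 without mouse 3), and Igfbp4 19.8-fold higher (4.31 ± 0.42, adjusted p = 1.09e-08) in fibroblast-like cells, in 2 of 2 mice. These 3 higher calls and 0 lower calls compare with 5.48% and 4.33% of all genes, and the count of lower members was also 0 at an unadjusted p under 0.05 and under DESeq2, but 1 with only the 2 classes in the fit. Igfbp7 differed by 0.12 ± 0.52 and Igfbp5 by -0.85 ± 0.59 between these classes, and neither passed (adjusted p = 0.996 and 0.471).

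**Figure D2:**
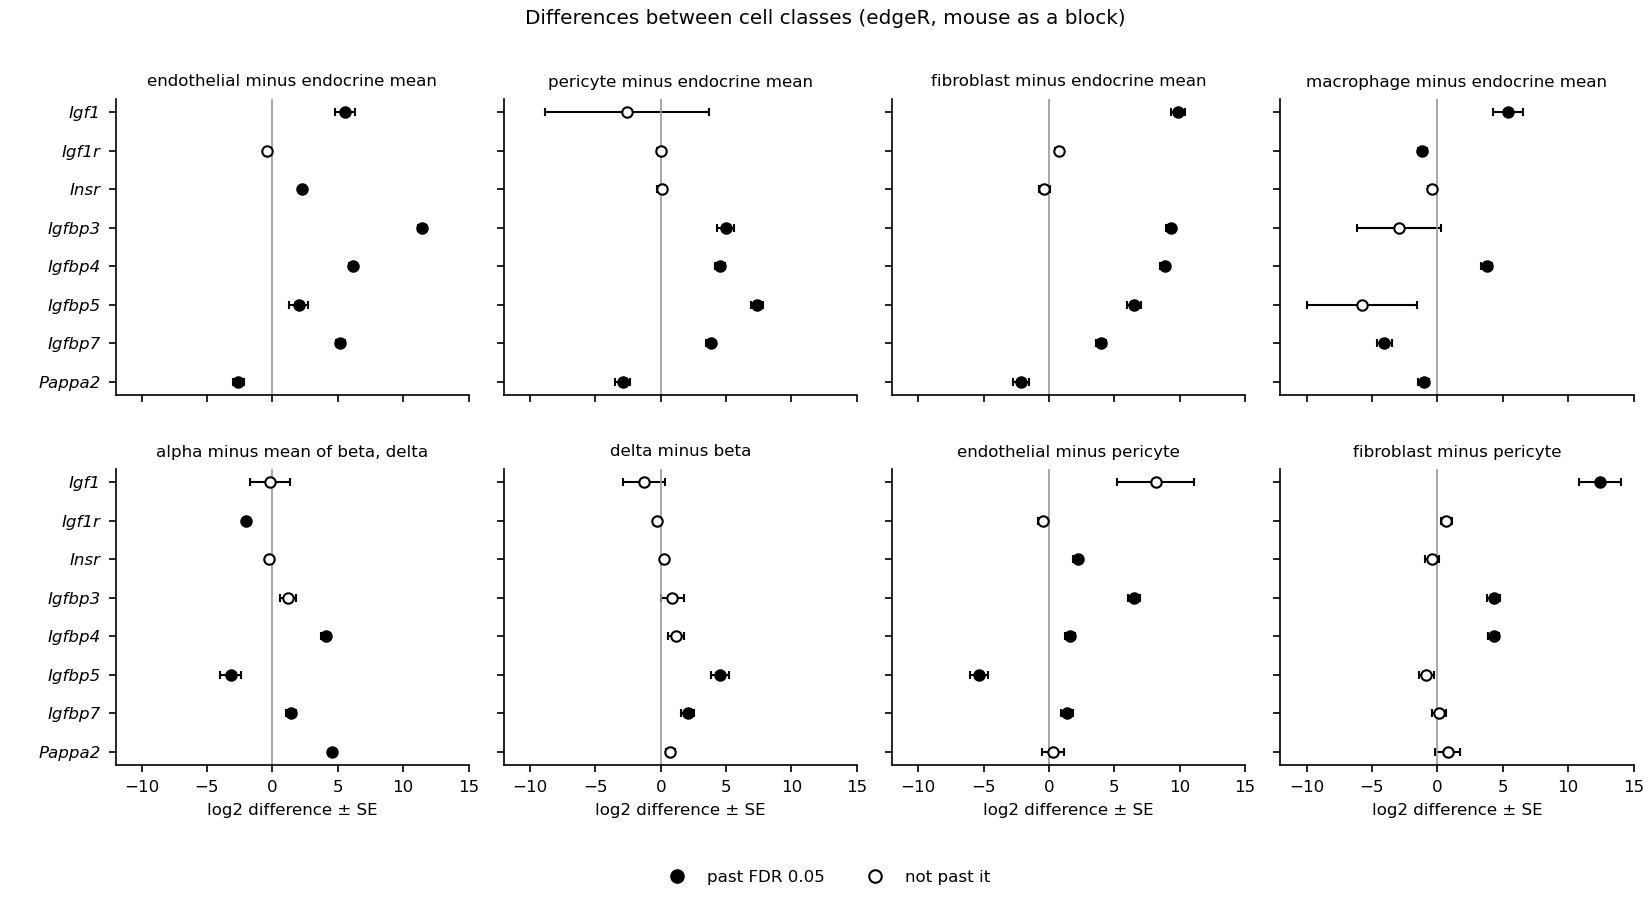
Log2 differences between cell classes with their standard errors for the 8 genes in 8 comparisons, from 1 edgeR fit with the mouse as a block. Filled circles passed a false discovery rate of 0.05. Where a class had no UMI of a gene (Igf1 in pericyte-like cells, Igfbp3 and Igfbp5 in macrophage-like cells) the plotted size depends on the fit and is not a bound.

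Beyond fibroblast-like cells, Igf1 was found in exocrine classes. Duct-like cells were at 33.7, 38.7 and 58.4, from 77, 119 and 188 UMIs, and the acinar-like level came from 30, 59 and 8 UMIs. In CPM without TMM scaling the acinar-like level was 18.4, 21.3 and 22.9 (TMM factors 0.15, 0.192 and 0.314), below the duct-like level of 56.4, 64.0 and 104. Fibroblast markers were nearly absent from duct-like cells, with 1, 0 and 2 UMIs of 8 markers. Duct-like cells of mouse 3 had 94.0 Igf1 UMIs per fibroblast-marker UMI, against 0.0236 in fibroblast-like cells of the same mouse. Endocrine cells had 0 to 6 Igf1 UMIs in each sum.

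Macrophages are a known source of IGF-1 in many tissues, and here their Igf1 level varied widely. It was 43.2 in mouse 1 but 5.70 and 2.28 in mice 2 and 3, from 12, 2 and 2 UMIs, and 6 of the 12 came from 1 cell. Against the endocrine mean Igf1 passed as higher (5.40 ± 1.12, adjusted p = 5.23e-04), but not without mouse 1 (3.61, adjusted p = 0.204). Of the 8 genes 2 were higher and 3 lower in macrophage-like cells, where 23.1% of all genes were called higher and 22% lower, with medians of -1.09 for the 8 genes and -0.19 for all genes. Igfbp4 was higher (3.77 ± 0.40, adjusted p = 3.70e-09), from a level of 75.5, 28.5 and 31.9. Igfbp7 was lower (-4.05 ± 0.60, adjusted p = 1.61e-06), at 14.4, 17.1 and 11.4, which were its lowest mean and narrowest range of all classes. Igf1r (-1.14 ± 0.35, adjusted p = 0.00839) was lower too, but not past the threshold without mouse 2 (adjusted p = 0.0505) or mouse 3 (adjusted p = 0.207). The lower call of Pappa2 (-1.04 ± 0.41, adjusted p = 0.0381) was lost under 7 of 16 alternatives. Its macrophage-like level of 14.4, 28.5 and 12.5 rested on 4, 10 and 11 UMIs, of which 1 cell of each mouse gave 4, 4 and 9. That level was above the beta-like level (12.1, 9.09 and 7.95) in each mouse, on these few cells. It overlapped the delta-like range (23.4, 15.5 and 10.5), and only the alpha-like level (278, 276 and 325) was above it in each mouse. Igfbp3 and Igfbp5 had no UMI in macrophage-like cells, so their endothelial-like and pericyte-like means were at least 444-fold and 222-fold higher.

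Among endocrine cells, Pappa2 marked the alpha-like and gamma-like classes. It stood at 278, 276 and 325 in alpha-like cells and at 300.2, 204 and 302 in gamma-like cells, 2 overlapping ranges. Levels in beta-like cells were 12.1, 9.09 and 7.95, and in delta-like cells 23.4, 15.5 and 10.5. Every alpha-like and gamma-like sum was above every sum of any other class, the highest of which was 28.8. Shares of cells were compared after each cell was thinned to 2000 UMIs, which kept 165 of 171, 525 of 544 and 382 of 408 beta-like cells and 166 of 167, 282 of 283 and 945 of 960 alpha-like cells. Pappa2 was seen in 42.2%, 33.0% and 42.3% of alpha-like cells and in 2.42%, 1.52% and 2.09% of beta-like cells. Without thinning these shares were 91.6%, 80.2% and 90.7% against 15.2%, 7.9% and 10.3%. Barcodes below 500 genes were taken as the profile of free RNA, but what they hold was not tested. They gave Pappa2 at 24.5, 19.4 and 84.9 CPM. Its unscaled beta-like level was lower, at 7.15, 4.74 and 4.94. On that profile, free RNA was estimated from acinar markers at 4.83%, 2.59% and 0.912% of beta-like UMIs. How much of the beta-like Pappa2 signal is free RNA was not tested.

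The alpha-like cells were set against the mean of beta-like and delta-like cells. Of the 8 genes 3 were higher and 2 lower, where 9.42% of all genes were called higher and 9.48% lower, with medians of 0.52 and -0.01. Pappa2 was 23.7-fold higher (4.57 ± 0.27, adjusted p = 1.56e-14, 3 of 3 mice), and it passed in the same direction under all 16 alternatives (4.15 to 4.91). Igfbp4, was 16.8-fold higher (4.07 ± 0.36, adjusted p = 2.50e-10), at 20.5, 14.2 and 24.7 in alpha-like cells against 1.52, 0.379 and 0.674 in beta-like cells. Igfbp7 was 2.67-fold higher (1.42 ± 0.38, adjusted p = 0.00783) and its call was lost without mouse 2 (adjusted p = 0.243) or mouse 3 (adjusted p = 0.0748). Its alpha-like level of 376, 448 and 403 was nearer to that of delta-like cells (297, 309.8 and 341) than to that of beta-like cells (88.5, 67.6 and 67.5). Igfbp5 was lower (-3.18 ± 0.80, adjusted p = 0.00621), from only 16 alpha-like UMIs, and this call was lost with at least 1000 genes per cell (adjusted p = 0.0568), with grouping on variable genes (adjusted p = 0.535), and without mouse 1 (adjusted p = 0.0675) or mouse 2 (adjusted p = 0.159).

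Delta-like cells, which secrete somatostatin, differed from beta-like cells in 2 of the 8 genes, both higher, where 11% of all genes were called higher and 8.97% lower, with medians of 0.80 and 0.02. At an unadjusted p under 0.05 the count of lower members was 0 as well, DESeq2 also called 2 higher and 0 lower, and with only the 2 classes in the fit Igf1r became the 1 lower call. Igfbp5 was at 22.1, 23.6 and 25.8 in delta-like cells and at 2.27, 0.947 and 0.270 in beta-like cells (4.51 ± 0.68, adjusted p = 3.23e-05, 3 of 3 mice). Thinned to 2000 UMIs, 2.97%, 5.14% and 7.59% of delta-like cells had a UMI of Igfbp5, against 0.606%, 0.381% and 0% of beta-like cells. Without thinning the shares were 27.7%, 27.9% and 24.7% against 4.09%, 1.29% and 0.49%. Delta-like cells had 16.7, 39.5 and 13.1 Igfbp5 UMIs per UMI of the 10 pericyte markers, whereas pericyte-like cells had 0.0514, 0.0204 and 0.0589. Igfbp7 was at 297, 309.8 and 341 in delta-like cells against 88.5, 67.6 and 67.5 in beta-like cells (2.06 ± 0.48, adjusted p = 0.00183), and the call was lost without mouse 2 (1.98, adjusted p = 0.106).

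**Figure D3:**
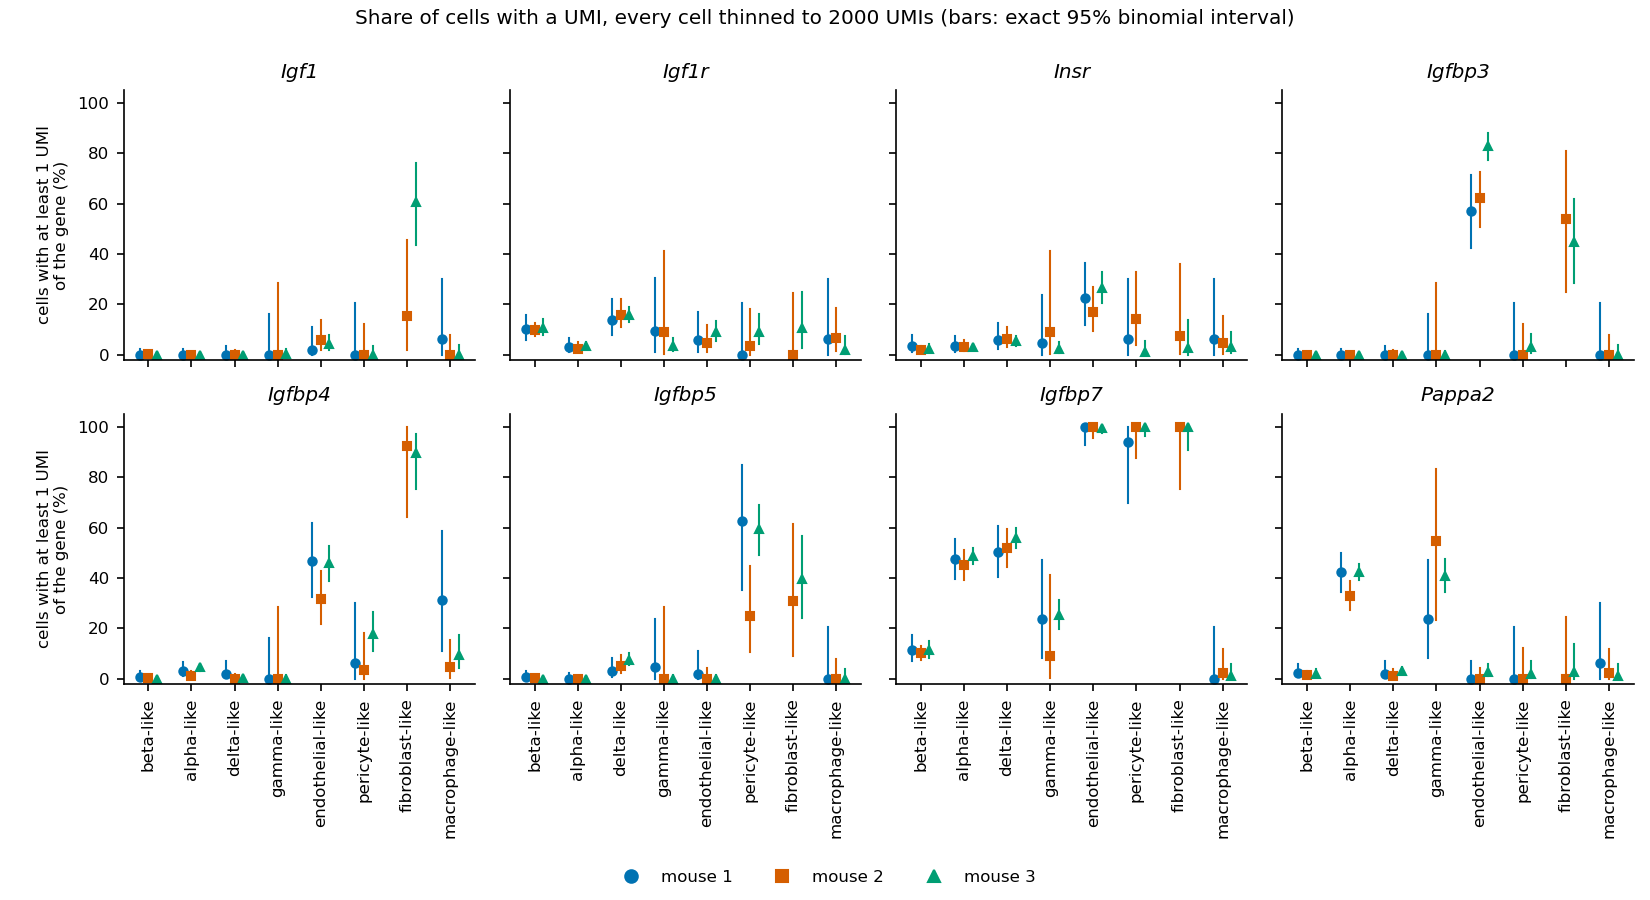
Percentage of cells with at least 1 UMI of each gene after every cell was thinned to 2000 UMIs, by class and mouse. Bars are exact 95% binomial intervals for counting error, and the fibroblast-like class has no point for mouse 1. Nearly all endothelial-like, pericyte-like and fibroblast-like cells have an Igfbp7 UMI, against 45.0% to 48.7% of alpha-like and 10.1% to 11.5% of beta-like cells.

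Since Igfbp7 was so abundant in vessel cells, its endocrine UMIs were set beside the endothelial markers of the same sums. The 10 markers, Pecam1 and Cdh5 among them, summed to between 16219 and 22209.6 CPM in endothelial-like cells and to between 4.7 and 34.2 in beta-like, alpha-like and delta-like cells. For each endothelial-marker UMI there were 0.621, 0.672 and 0.652 Igfbp7 UMIs in endothelial-like cells. Alpha-like cells had 69.0, 22.2 and 53.3 and delta-like cells 11.4, 15.5 and 14.6. Pericyte-like cells had 43.5, 35.4 and 35.0 and fibroblast-like cells 19.2 and 22.5, both above the delta-like values, and the part of RNA from other cells in the endocrine values was not tested. Beta-like cells had 10.6, 5.95 and 5.63, and their unscaled Igfbp7 level of 52.1, 35.2 and 41.9 CPM lay below that of the barcodes under 500 genes, at 73.4, 74.4 and 409. The unscaled alpha-like level of 325, 359 and 369.6 lay above that of these barcodes in mice 1 and 2 but below it in mouse 3. The delta-like level of 389, 404 and 477 lay above it in each mouse. Igfbp4 in alpha-like cells stood likewise at 3.76, 0.701 and 3.27 UMIs per endothelial-marker UMI, against 0.0174, 0.0170 and 0.0164 in endothelial-like cells, and at 2.60, 1.95 and 2.75 per fibroblast-marker UMI, against 0.107 and 0.0939 in fibroblast-like cells. Its unscaled alpha-like level was 17.7, 11.3 and 22.7 CPM. The barcodes under 500 genes were lower in mice 1 and 2 (4.78 and 5.97) but higher in mouse 3 (25.3).

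**Figure D4:**
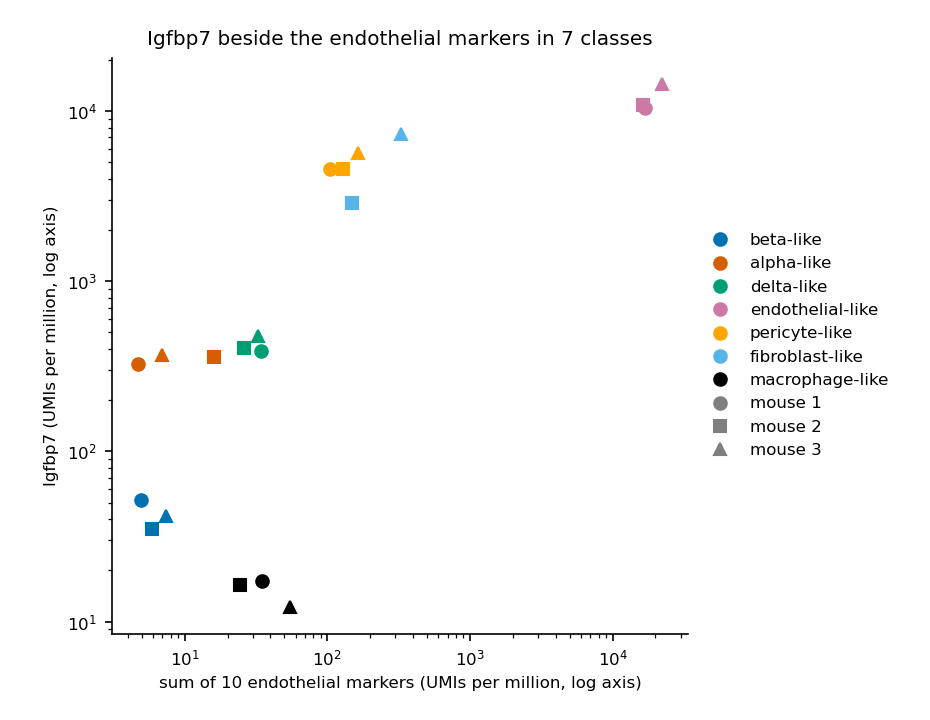
Igfbp7 against the summed level of 10 endothelial markers in 7 cell classes, both in unscaled CPM on log axes. Each point is 1 class in 1 mouse. Alpha-like and delta-like points lie far above macrophage-like points that have as much endothelial-marker CPM or more.

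Both receptors were counted in all 12 classes. Igf1r, the IGF-1 receptor, was at 51.6, 64.0 and 60.9 in beta-like cells and 46.4, 47.1 and 50.5 in delta-like cells. These 2 ranges did not overlap, but the classes did not differ by the test (-0.29 ± 0.23 for delta-like minus beta-like, adjusted p = 0.452). The order of the ranges rests on the TMM factors (0.591, 0.522 and 0.623 for beta-like, 1.32, 1.31 and 1.41 for delta-like sums). In CPM without TMM scaling it was reversed, with delta-like above beta-like cells in each mouse. With TMM scaling, alpha-like cells were at 13.1, 12.8 and 13.9, which was 3.98-fold lower than the mean of beta-like and delta-like cells (-1.99 ± 0.23, adjusted p = 2.40e-08, 3 of 3 mice). Gamma-like cells, at 10.9, 6.29 and 21.8, overlapped the alpha-like range. In non-endocrine classes Igf1r was at 25.9, 23.6 and 26.0 (endothelial-like), 44.8, 34.8 and 30.6 (pericyte-like), 85.2 and 40.7 (fibroblast-like) and 25.2, 19.9 and 9.11 (macrophage-like). Of the 21 fibroblast-like Igf1r UMIs of mouse 2, 16 came from 1 cell, as did 8 of the 10 pericyte-like UMIs of mouse 1. Neither the endothelial-like (-0.41 ± 0.25, adjusted p = 0.170) nor the pericyte-like (0.05 ± 0.30, adjusted p = 0.949) nor the fibroblast-like (0.74 ± 0.32, adjusted p = 0.0892) difference from the endocrine mean passed. The endothelial-like difference did pass after thinning (-0.99, adjusted p = 0.00661) and with only these classes in the fit (-0.44, adjusted p = 0.0133), and the fibroblast-like one under DESeq2 (0.87, adjusted p = 0.0311) and without mouse 3 (1.44, adjusted p = 0.0183), but it was -1.01 after thinning. After thinning, 10.3%, 9.9% and 10.7% of beta-like cells, 13.9%, 16.0% and 15.9% of delta-like cells and 3.01%, 2.48% and 3.60% of alpha-like cells had an Igf1r UMI. Without thinning the shares were 50.3%, 51.3% and 58.1%, 59.4%, 49.2% and 44.5%, and 26.9%, 21.2% and 22.5%.

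Insr, the insulin receptor, was highest in endothelial-like cells, at 73.7, 69.8 and 113. Every other class had sums between 4.01 and 27.4, with overlapping neighbours in the order of their means. Beta-like cells were at 18.4, 15.8 and 19.4, alpha-like cells at 14.1, 15.9 and 18.2, and delta-like cells at 22.1, 19.1 and 21.4. The endothelial-like level was 4.77-fold above the endocrine mean (2.25 ± 0.17, adjusted p = 5.67e-13, 3 of 3 mice), with a log2 range of 2.04 to 2.38 over 16 alternatives, in each of which it passed. Insr did not pass between alpha-like cells and the mean of beta-like and delta-like cells (-0.25 ± 0.19, adjusted p = 0.428). After thinning, 22.4%, 17.1% and 26.4% of endothelial-like cells had an Insr UMI, against 3.64%, 2.10% and 2.36% of beta-like cells, and without thinning 57.1%, 44.0% and 45.0% against 29.8%, 21.5% and 27.7%.

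Per Insr UMI there were 3.33 ± 0.648 Igf1r UMIs in beta-like cells (SD, n = 3), 2.31 ± 0.190 in delta-like cells, 0.834 ± 0.0880 in alpha-like cells and 0.307 ± 0.0674 in endothelial-like cells. The ratio was above 1 in every mouse for beta-like and delta-like cells and below 1 in every mouse for alpha-like and endothelial-like cells, and the 4 ranges did not overlap. Pericyte-like (1.79 ± 0.441) and duct-like cells (1.20 ± 0.106) lay between alpha-like and delta-like cells. Macrophage-like cells were at 1.45 ± 0.860, with mice on either side of 1 (0.615 to 2.33). Fibroblast-like (3.83 ± 0.471, n = 2) and Schwann-like cells (5.83 ± 3.06, n = 2) had higher means than beta-like cells. These came from 6 Insr UMIs in each fibroblast-like sum and 3 in each Schwann-like sum. UMIs count transcript 3′ ends, which different genes may yield unequally, so the ratio compares classes and is no measure of receptor protein. No test was run on the ratio.

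**Figure D5:**
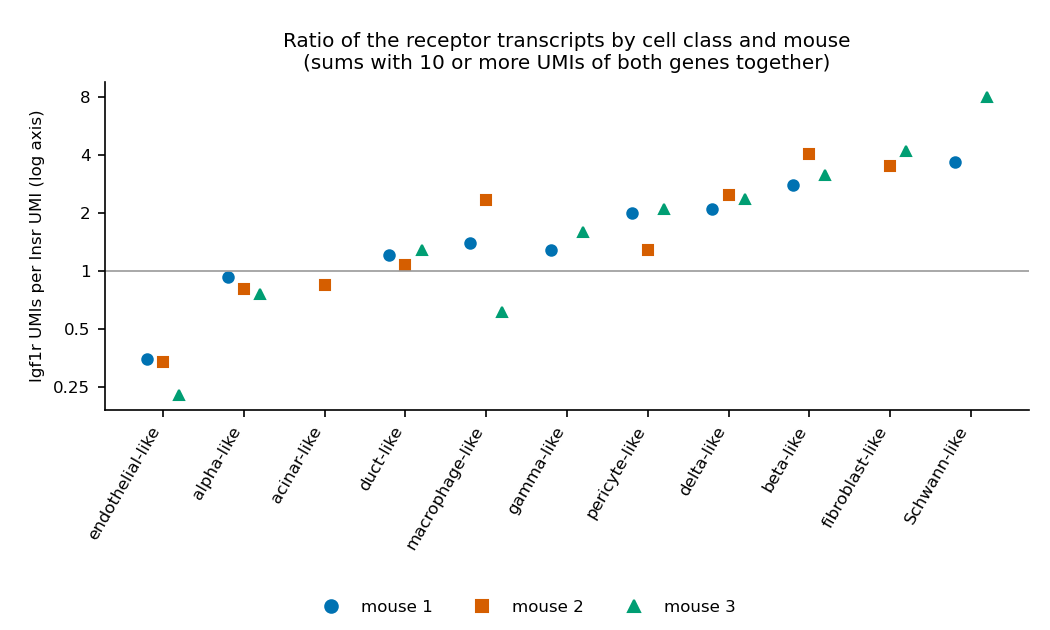
Igf1r UMIs per Insr UMI in each class and mouse, on a log axis, for sums with at least 10 UMIs of both genes together. Beta-like (2.79 to 4.05) and delta-like sums (2.10 to 2.47) lie above 1, and alpha-like (0.765 to 0.933) and endothelial-like sums (0.229 to 0.352) below it.

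Other genes of the pathway were read from 2 lists. Of 10 further ligands, carriers and proteases, 6 were tested, and Igf2, Igfbp1, Igfbp2 and Igfbpl1 did not pass the filter on low counts. Against the endocrine mean, 4 of the 6 were higher in fibroblast-like cells (14.9% of all genes), 2 in endothelial-like cells (25.9%), and 1 each in pericyte-like (17.4%) and macrophage-like cells (23.1%). The 1 lower call was Igfals in endothelial-like cells (24.6% of all genes), and outside fibroblast-like cells the higher counts were near the shares of all genes. Stc1, a stanniocalcin that inhibits pappalysins, was at 102 ± 14.1 (SD, n = 3) in endothelial-like cells and 121-fold above the endocrine mean (6.92 ± 0.25, adjusted p = 1.47e-18). Htra1, a secreted protease that can cleave binding proteins, was at 309 ± 104 (SD, n = 2) in fibroblast-like cells, 66.3 ± 4.94 in pericyte-like cells and 17.9 ± 10.7 in endothelial-like cells (SD, n = 3), and higher than the endocrine mean in each of them. Igfbp6, a carrier that prefers IGF-2, was at 60.9 and 339 in fibroblast-like cells of mice 2 and 3 and below 2 in all other sums. Pappa, which encodes the related protease PAPP-A, was at 34.2 and 48.7 in fibroblast-like cells and at 54.4 and 124 in Schwann-like cells, so the 2 pappalysin genes were high in different classes. Igfals, the partner of IGFBP-3 and IGFBP-5 in the circulating complex, was at 19.2 in beta-like and 0.292 in delta-like cells on average (-5.35 ± 0.52 for delta-like minus beta-like, adjusted p = 4.29e-09).

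All 24 genes of the receptor and signalling list were tested. In endothelial-like cells 8 were higher and 6 lower than the endocrine mean, where 25.9% and 24.6% of all genes were called. The counts were 7 and 5 in pericyte-like cells (17.4% and 16.5%), 9 and 3 in fibroblast-like cells (14.9% and 10.7%), and 4 and 9 in macrophage-like cells (23.1% and 22%). The medians of the list were 0.06, 0.18, 0.54 and -0.60, against -0.09, -0.2, -0.17 and -0.19 over all genes. Irs2, an insulin receptor substrate that couples both receptors to PI3K, was 16.2-fold lower in endothelial-like than in endocrine cells (-4.02 ± 0.36, adjusted p = 1.64e-11), the class with the most Insr. Foxo1, a transcription factor that AKT shuts out of the nucleus, was 2.55-fold higher in endothelial-like and 30.4-fold lower in pericyte-like cells than in endocrine cells (adjusted p = 3.50e-08 and 1.43e-07). The pericyte-like sums ranged from 0 to 1.33 CPM, below the 2.42 CPM that 3 counts give over these sums. The size of the pericyte-like difference therefore depends on the fit. Alpha-like cells differed from the mean of beta-like and delta-like cells in 6 genes of this list, 2 higher and 4 lower, where 9.42% and 9.48% of all genes were called. Grb10, an adaptor that dampens signalling from both receptors, was at 143 ± 17.3 in alpha-like cells, 10.0 ± 1.37 in beta-like cells and 9.46 ± 1.21 in delta-like cells (SD, n = 3), which was 14.6-fold higher in alpha-like cells (3.86 ± 0.22, adjusted p = 2.99e-15). Irs2 was 2.52-fold higher (adjusted p = 3.45e-06), while Ghr, the growth hormone receptor, was 3.13-fold lower (adjusted p = 1.89e-06) and Insrr, a receptor of the insulin receptor family that senses alkaline pH, was 3.12-fold lower (adjusted p = 9.73e-06). Delta-like cells differed from beta-like cells in 9 genes of the list, 3 higher and 6 lower (11% and 8.97% of all genes), among them Insrr (-1.74 ± 0.28) and Shc1 (-1.71 ± 0.21).

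The genes whose levels ran most in parallel with each of the 8 were ranked by Pearson correlation of log2(CPM + 10) over 34 class-by-mouse sums and 4734 genes. Sums of 1 mouse share a library and sums of 1 class share a cell type, so the coefficients are descriptions. Igfbp3 ran with Cd34 (0.973), Ly6c1 (0.962) and Aplnr (0.962), which are known from endothelium. Igfbp5 ran with Pi15 (0.939), Cd248 (0.927) and Mylk (0.922), the latter 2 known from mural and mesenchymal cells. Igfbp7 was nearest to Serpinh1 (0.897), Lamc1 (0.878) and Col4a1 (0.878), of which Lamc1 and Col4a1 encode basement membrane chains, and Igfbp4 to Emp1 (0.924), Zcchc24 (0.919) and Col15a1 (0.899). Pappa2 ran with Ndst4 (0.914) and with Irx2 (0.893), a gene on the alpha marker list. Insr was nearest to Smad6 (0.866), Inhbb (0.855) and Tnfsf10 (0.846), Igf1 to Mcfd2 (0.812), Aldh1a1 (0.801) and Nupr1 (0.774), and Igf1r to Fndc3b (0.703), Fkbp9 (0.695) and Glg1 (0.678). Between the 8 genes themselves the highest coefficient was that of Igfbp3 with Igfbp4 (0.747), and Pappa2 had a negative coefficient with each of the other 7.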

How the data were processed

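Single-cell libraries were made with the 10x Genomics single cell 3′ protocol, 1 per mouse. The deposited matrices hold raw UMI counts per gene and barcode, made with Cell Ranger 2.2 on mm10, per the submitters' processing notes. The header of the matrices names a different software version, and which of them applies was not settled. The mouse numbers follow accession order. The 8 genes and all gene lists were chosen with earlier results of these data known.

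A barcode was taken as a cell from 500 genes upward if mitochondrial UMIs made up no more than 15%. The highest Scrublet scores (scanpy 1.11.5, seed 1) were removed at 0.8% per 1000 barcodes, so 55, 96 and 166 cells were dropped as likely doublets; the caller's own threshold, an alternative, marked 9, 9 and 13. Counts scaled to 10000 per cell were log-transformed. Cells were clustered on 143 markers of 20 cell types (scaled with a limit of 10, 20 principal components, 20 neighbours, leidenalg 0.10.2, resolution 1), without integration. A cluster was named from at least 3 markers of 1 type among its 30 leading genes, 1 or more in its first 10 and at least 3 raised 2-fold (pseudocount 20 CPM, detection in 10% of cells), with no other type having as many; 1 shallow beta-like cluster of 276 cells (31 of mouse 1, 245 of mouse 2) was led by Gm26917. The ranking left out the 8 genes.

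UMI counts were summed per class and mouse (at least 10 cells, at least 2 mice), giving 34 sums of 12 classes in 1 quasi-likelihood fit with the mouse as a block (R 4.3.3 with edgeR 4.0.16, robust, TMM scaling, filterByExpr, false discovery rate 0.05). The standard error is the log2 difference divided by the square root of F. The pairing comes from the same animals. Deviations from class means had correlations of -0.0106 to 0.859 (median 0.364) for 2 classes of 1 mouse, against -0.777 to 0.248 (median -0.174) across mice, over 1896 genes and 10 classes. Deviations from a mean of 3 mice sum to 0, so the negative values across mice are partly built in. With 1 library per mouse, animal and library cannot be told apart. The fit was tested on simulated data. DESeq2 1.42.0 was an alternative. Intervals for shares are exact binomial at 95%, floors are 3 counts, and both cover counting error only. Named are the 8 genes, up to 4 genes per pathway list and comparison with the smallest p, and 3 genes per member for likeness among genes that reach 50 CPM in a class, of which 1 is not reported here. Promoters came from a RefSeq table that matched 7 of the 8 genes.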

Additional observations from a re-analysis of the deposited data

How the results depend on the processing

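Across 16 alternatives (17 with the fibroblast-like sum of mouse 2 left out, chosen after seeing the data), the count of genes called stayed within 1.5 times in 122 of the 130 values over the 8 comparisons. Macrophage-like against endocrine cells gave 5 calls, 3 after thinning to 2000 UMIs and 3 to 4 with 1 mouse left out. Alpha-like cells gave 5, and 3 to 5 with 1 mouse left out. Delta-like against beta-like cells gave 2, 4 with only these classes in the fit, and 1 to 3 with 1 mouse left out. Endothelial-like against pericyte-like cells gave 5, and 3 to 5 with 1 mouse left out. Without the replicate block all 8 counts were the same (7, 5, 6, 5, 5, 2, 5 and 3), and Igfbp7 between endothelial-like and pericyte-like cells was a lost call.

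Of the gene-level differences, 746 kept their direction and side of the threshold, 43 lost it, 6 gained it and 16 turned. The differences that turned, of which only those of Igfbp3 and Igfbp5 had passed, were, for pericyte-like minus endocrine, Igf1r (-0.04 with variable genes, -0.03 with free RNA subtracted, -0.02 with only these classes, -1.20 thinned, where it passed with adjusted p = 0.0304, and -0.08 to 0.33 with 1 mouse left out), Insr (-0.15 with variable genes, -0.01 with only these classes, -0.60 thinned, and -0.14 to 0.58 with 1 mouse left out, -0.02 being without replicate 1) and Igfbp3 (-1.70 without replicate 3, up to 5.62 without replicate 2). The others were Igfbp5 endothelial-like minus endocrine (-1.57 thinned), Igf1r fibroblast-like minus endocrine (-1.01 thinned), Insr fibroblast-like minus endocrine (0.59 without replicate 3, -0.98 without replicate 2) and minus pericyte-like (0.01 without replicate 3, -0.84 without replicate 2), and Igf1r endothelial-like minus pericyte-like (0.21 thinned). The cause was not tested. Subtracting free RNA left out the fibroblast-like and dendritic-like sums of mouse 2, whose estimated free share was 100%. Depth limits the small classes most: no Igf1 UMI in 101 thinned pericyte-like cells of mouse 3 allows up to 2.97% of cells with a UMI at that depth, which is no limit on cells expressing it.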

Other observations

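Cells in clusters without a name also carried these genes. In unnamed cluster 8 (331 cells, led by Pde10a, Gem and Gcg), Pappa2 was at 240.5 and 377 unscaled CPM in mice 1 and 3, and 40.9% and 48.2% of thinned cells had a UMI of it. In unnamed cluster 7 (358 cells, 306 of them from mouse 2, led by Gm42418, AY036118 and Ghrl) Pappa2 was at 167 and 159.6 in mice 1 and 2. Unnamed cluster 1 (772 cells) had Pappa2 at 26.9 and 20.7 and Igfbp7 at 110.2 and 296 in mice 1 and 2. These cells enter no class described above.

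Within the named classes, Pappa2 ranged from 133 to 309 unscaled CPM over the alpha-like clusters with at least 10 cells in a mouse. Igf1r was above 50 in every delta-like cluster and mouse (52.7 to 99.4) and at most 27.0 in every alpha-like one. In mouse 3, beta-like cluster 19 (60 cells with a median of 3643.5 UMIs over all mice) had Pappa2 at 55.6, against 1.65 to 4.02 in the other beta-like clusters of that mouse.

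Pappa2 and Igfbp4, both higher in alpha-like cells, were seen together in 3 of 166, 2 of 282 and 26 of 945 thinned alpha-like cells. At least 1 of them was seen in 43.4%, 33.3% and 44.1%, little above the share with Pappa2 alone. Igfbp4 was thus seldom seen at this depth, which limits the joint count. Igfbp5 and Igfbp7 were seen together in 56.2%, 25.0% and 59.4% of thinned pericyte-like cells. Igfbp3, Igfbp5 and Igfbp7 were seen together in 0 of 49, 82 and 212 thinned endothelial-like cells, a depth at which Igfbp5, with 32 UMIs in this class, is seldom seen.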
